A study of Mus musculus with 6 samples.

Results

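The drug and bile metabolism enzyme genes were examined as accessible regions of small intestinal crypts. A peak of the table of all ATAC-seq peaks was taken as an enzyme gene peak when its deposited gene name began with Cyp followed by a number, or with Ugt1a, Ugt2, Gsta, Gstm, Gstp, Gstt, Sult1, Sult2, Ces1 or Ces2. This held for 306 of 123510 peaks, which carried the names of 125 genes. ATAC-seq uses a transposase that cuts and tags open DNA, so the reads in a peak measure how accessible that stretch is. There were 3 WT libraries and 3 Smarcad1-KO libraries, all from male C57BL/6 mice whose age the sources used here do not give. The KO line goes back to a single targeted ES cell clone. In the KO mice, Cre driven by the Villin promoter (Vil-Cre) removes exons 12 to 14 of floxed Smarcad1 in intestinal epithelial cells. Cells of other lineages in the preparation keep the gene, and the labels give the WT only as wild type, so whether WT mice carried Cre or floxed alleles is not stated.

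Enzymes that clear drugs, food compounds and bile acids act in steps. The cytochrome P450 enzymes (Cyp) add or expose a reactive group by oxidation, and the carboxylesterases (Ces) split esters. The UDP-glucuronosyltransferases (Ugt), glutathione S-transferases (Gst) and sulfotransferases (Sult) then attach a polar group, so that the product can be excreted. Liver is the main site, and enterocytes express a set of their own that meets the contents of the gut first. Many of the genes lie in tandem clusters in which one member is used in the intestine and its neighbours are used in liver, kidney, adrenal or olfactory tissue.

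Reads within peaks numbered 4339306 to 16301164 per library. The libraries numbered 2 lay together at one end of the first principal component of all peaks, which held 49.4% of the variance, and WT 3 and KO 3 lay at the other end. No peak overlapped the deleted Smarcad1 exons, so the table holds no direct check of the genotype. Of 7 markers of small intestinal epithelium, 3 had a peak within 1 kb of the gene start, among them Cdh1 and Cdx2, while Epcam and Vil1 had no named peak. Of 10 markers of immune, stromal, liver and villus cells, Col1a1 had a peak at its start and the other 9 had none, and Alb, Alpi, Apoa4, Cd3e and Cd79a had no named peak.

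The promoters of 5 genes are printed because the results below return to them. Cyp3a11 is the major drug-oxidising P450 of mouse liver and intestine and had a peak beside its start, whereas its paralog Cyp3a41a, known from female liver, had none, at a start where 23.1% of 50-base words are unique, so that missing reads and closed chromatin cannot be told apart. Cyp8b1, the sterol 12-alpha-hydroxylase of bile acid synthesis, had a peak over its start although it is known from liver. Cyp2s1, an epithelial P450, had one of the strongest start peaks, and the Cyp2e1 start peak had the lowest KO minus WT among start peaks of enzyme genes. Each sequence holds the 250 bases before the RefSeq gene start (GRCm38.p6), 5′ to 3′ along the gene, in lower case. Capitals mark letters of the 6 motifs searched on both strands, which were CAAAGTCCA (HNF4), AGGTCA (nuclear receptor core), TGACNNNGC (antioxidant response element), TNGCGTG (dioxin response element), GTTAATNAT (HNF1) and TTTATNG (CDX2).
Cyp3a11 (chr5:145879855-145880104, minus strand): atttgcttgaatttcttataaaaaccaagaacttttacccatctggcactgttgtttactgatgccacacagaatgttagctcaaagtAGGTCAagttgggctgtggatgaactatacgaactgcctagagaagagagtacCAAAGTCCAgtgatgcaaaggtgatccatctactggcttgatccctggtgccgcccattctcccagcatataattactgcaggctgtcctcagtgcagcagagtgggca
Cyp3a41a (chr5:145720137-145720386, minus strand): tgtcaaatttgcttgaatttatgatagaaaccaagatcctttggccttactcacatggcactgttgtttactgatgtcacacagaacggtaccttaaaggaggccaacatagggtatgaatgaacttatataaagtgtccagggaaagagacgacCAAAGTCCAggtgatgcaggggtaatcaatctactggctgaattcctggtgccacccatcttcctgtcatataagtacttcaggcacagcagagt
Cyp8b1 (chr9:121916306-121916555, minus strand): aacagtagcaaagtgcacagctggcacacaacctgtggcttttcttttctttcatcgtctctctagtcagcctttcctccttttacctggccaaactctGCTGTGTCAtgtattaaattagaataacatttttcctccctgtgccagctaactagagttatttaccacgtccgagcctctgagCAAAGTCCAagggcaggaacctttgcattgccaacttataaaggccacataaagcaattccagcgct
Cyp2s1 (chr7:25816526-25816775, minus strand): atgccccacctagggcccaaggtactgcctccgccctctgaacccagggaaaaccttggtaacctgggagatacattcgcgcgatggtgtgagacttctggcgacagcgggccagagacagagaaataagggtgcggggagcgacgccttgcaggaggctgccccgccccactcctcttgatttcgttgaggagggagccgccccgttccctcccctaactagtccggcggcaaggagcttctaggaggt
Cyp2e1 (chr7:140763569-140763818, plus strand): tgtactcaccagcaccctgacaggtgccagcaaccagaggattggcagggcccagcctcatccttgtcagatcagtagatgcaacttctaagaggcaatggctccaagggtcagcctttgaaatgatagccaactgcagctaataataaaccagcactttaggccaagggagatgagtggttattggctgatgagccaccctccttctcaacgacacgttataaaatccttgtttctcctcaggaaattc

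The HNF4 letters stood in the Cyp3a11, Cyp3a41a and Cyp8b1 promoters alike. Cyp3a11 also held the nuclear receptor core, and Cyp8b1 an antioxidant response element on the opposite strand. None of the 6 motifs lay in the 250 bases shown for Cyp2s1 or Cyp2e1. The Cyp2s1 stretch was 62% G or C, against 43.2% to 48.8% in the other 4.

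RefSeq promoters of 300 bases (250 before and 50 after the start) were found for 135 of the 167 annotated protein-coding genes of these families. HNF4 and HNF1 are liver and gut transcription factors that bind many metabolic genes. The HNF4 letters were in 12 of the 135 genes (8.89%) and in 0.555% of all 27025 genes with a promoter. They were in 5 of the 79 enzyme genes that had a peak at the start (6.33%) and in 7 of the 56 without one (12.5%). The HNF1 letters were in 11 of 135 enzyme genes (8.15%), among them Sult2a3, Sult2a4, Sult2a5, Sult2a6 and Ugt1a1, against 0.94% of all genes. The nuclear receptor core, a part of many hormone and xenobiotic receptor sites, was in 25.2% of enzyme genes and 18.1% of all genes. The CDX2 letters were in 12.6% and 12.5%. Fewer enzyme genes than genes in general held the antioxidant response element (7.41% against 13.99%) or the dioxin response element (2.96% against 5.84%). A TGACCT run, which is AGGTCA on the opposite strand, can open an antioxidant response element, so those counts can share bases. Neighbouring paralogs share promoter sequence and are not independent. Enzyme gene promoters had a median of 47.3% G or C and 2 CpG pairs, against 52.7% and 7 over all genes.

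Enzyme gene peaks were 300 to 59250 bp wide, and peak strength is given as the log2 of the normalised reads per kb of peak width. The median strength of the 306 peaks was 6.71, 6.52 and 6.80 in WT 1, 2 and 3, a mean of 6.68 ± 0.14 (SD, n = 3). All 123510 peaks had a median of 6.46 ± 0.15 (SD, n = 3). A start peak is here any peak of the table within 1 kb of the start of the gene in the GENCODE annotation. Start peaks were found for 92 of the 167 coding enzyme genes, whereas 59.3% of 21938 coding genes had one. The enzyme gene peaks that lay at their own gene's start numbered 83 (27.1%), and their WT median was 7.05 ± 0.24 (SD, n = 3). The other 223 peaks had a median of 6.59 ± 0.09 (SD, n = 3). Peaks at starts of their named genes across the whole table had a median of 7.30 ± 0.32 (SD, n = 3).

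Families differed in how many members had a start peak. All 7 Gstm genes and all 3 Gstp genes had one, and Cyp2 had 26 of 49. For 13 of the 92 genes with a start peak it bore another name or none, as at Gstm5, Gstt3 and Sult2b1. Such a peak may not belong to the enzyme gene alone. The share was low for Sult2 (3 of 9), Cyp1 (1 of 3) and Ugt2a (1 of 3). The Cyp1 share depends on the annotation, since Cyp1a1 counts as without a start peak although its peak ended 413 bp before the RefSeq start. Start peaks were also found for 6 of 9 Cyp3, 10 of 20 Cyp4, 10 of 19 higher-numbered Cyp, 5 of 8 Ces1, 5 of 7 Ces2, 5 of 9 Ugt1a, 3 of 7 Ugt2b, 2 of 4 Gsta, 2 of 4 Gstt and 3 of 6 Sult1 genes. There were 45 coding genes with no peak under their current symbol, and 36 of them had no start peak under another name either.

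**Figure D1:**
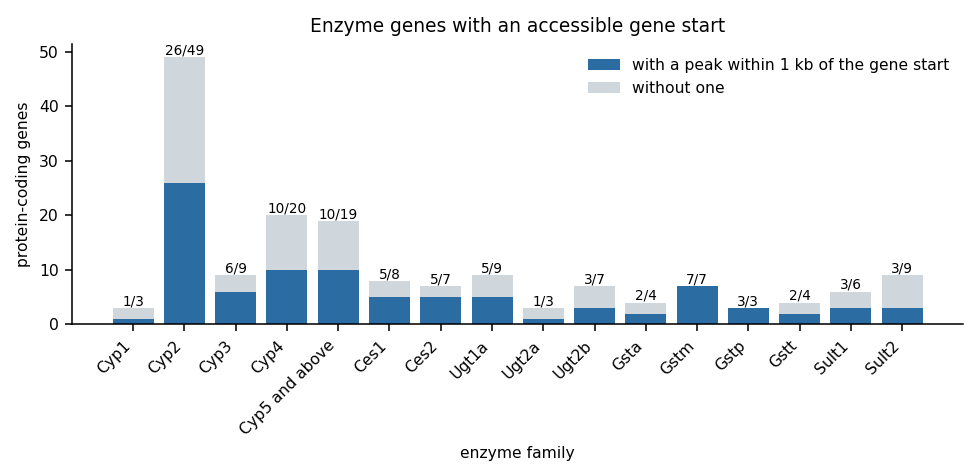
Protein-coding genes of each enzyme family (y axis, number of genes) with a peak within 1 kb of the gene start (blue) and without one (grey), with the counts printed above the bars. The Gstm and Gstp bars are all blue, and the Cyp2 bar is split 26 of 49. Starts are those of the GENCODE gene records, by which Cyp1a1 counts as without a peak.

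Among the P450 families, Cyp2 had the most peaks (80 peaks at 40 named genes). Its subfamilies were unlike each other. No Cyp2a gene had a start peak (0 of 4), and in Cyp2b only Cyp2b10, the phenobarbital-inducible member, had one (1 of 5). At 4 of the starts without a peak, those of Cyp2a4, Cyp2a5, Cyp2b13 and Cyp2b9, 43.3% to 56.6% of 50-base words were unique, so reads there cannot be placed with certainty. The Cyp2b10 start peak was at 7.76, 7.81 and 7.80 in WT 1, 2 and 3 and at 7.98, 7.50 and 8.16 in KO 1, 2 and 3. The WT values lay within the range of the KO values, so the groups overlapped. Of 15 Cyp2c genes, 6 had a start peak, and the intestinal Cyp2c65 was the strongest of them at 7.37 ± 0.33 (SD, n = 3). Among the Cyp2c starts without a peak, unique words made up 5.9% at Cyp2c29, 59.6% at Cyp2c40, 62.2% at Cyp2c69 and 78.8% at Cyp2c37. Not all reads at those starts can be placed with certainty either, least of all at Cyp2c29. The start peak of Cyp2c55, another intestinal member, was at 6.98 ± 0.17, that of Cyp2c66 at 6.89 ± 0.31, and those of Cyp2c38, Cyp2c68 and Cyp2c70 lay between 6.24 and 6.34. Cyp2c55 and Cyp2c66 differed by less than the larger of their SDs, and Cyp2c65 lay above both by more than either SD of each pair.

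All 8 Cyp2j genes, which encode fatty acid epoxygenases, had a start peak, yet these ranged from 6.05 for Cyp2j13 to 7.52 for Cyp2j6. Cyp2j6, the member known from intestine, stood at 7.87, 6.48 and 8.20 in WT and at 7.81, 6.66 and 8.39 in KO. Both number-2 libraries were well below the others, and the groups overlapped fully. Cyp2d26 was the strongest of the Cyp2d starts, at 7.83, 8.10 and 8.36 in WT and 8.01, 7.83 and 8.25 in KO. In the neighbouring Cyp2d10 and Cyp2d34 genes the start peaks were at 6.23 ± 0.57 and 6.65 ± 0.16 (SD, n = 3).

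Cyp2s1 reached 8.29, 7.78 and 8.55 in WT and 8.20, 7.74 and 8.84 in KO, above 98.0% of all peaks. Cyp2r1, the vitamin D 25-hydroxylase, and Cyp2u1, a fatty acid hydroxylase, were nearly as strong, at 8.08 ± 0.36 and 8.08 ± 0.43 (SD, n = 3). Cyp20a1, an orphan P450, stood at 8.07 ± 0.46. These start peaks differed from one another by less than their SDs, though Cyp2s1 was the highest of them in each WT library.

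Among the Cyp3a genes, whose enzymes oxidise many drugs, the 3 members of the intestine list had the highest mean start peaks. Cyp3a13 lies apart from the others on chromosome 5. Cyp3a13, the best known intestinal member, was at 7.44, 7.82 and 7.88 in WT and 7.73, 7.73 and 8.19 in KO. Cyp3a25 was at 7.28, 6.79 and 7.79 in WT and Cyp3a11 at 6.86, 6.66 and 7.37, the latter in a peak 737 bp from the start. Start peaks of Cyp3a44, Cyp3a57 and Cyp3a59 were at 6.61 ± 0.19, 6.19 ± 0.58 and 6.45 ± 0.93 (SD, n = 3). Their highest WT values all exceeded the lowest value of Cyp3a11, so the ranges across libraries overlapped. Within each WT library, however, Cyp3a11 was above all of them. In WT 1, 2 and 3 Cyp3a44 was at 6.52, 6.49 and 6.82 and Cyp3a57 at 6.17, 5.62 and 6.78. Cyp3a59 was at 6.56, 5.46 and 7.32, close to Cyp3a11 in WT 3. Cyp3a16, Cyp3a41a and Cyp3a41b had no start peak, and 70.1% of the 50-base words at the Cyp3a16 start were unique. Of the 50-base words within 500 bp of the Cyp3a41a and Cyp3a41b starts, 23.1% and 23.7% occurred once in the genome, so reads there cannot be placed with certainty, and missing reads and closed chromatin cannot be told apart.

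The Cyp4f genes, on chromosome 17 with the exception of Cyp4f18, had the strongest peaks of any Cyp subfamily examined (Cyp2a to Cyp2d, Cyp2j, Cyp4a and Cyp4f), with a median of 7.51 ± 0.22 (SD, n = 3) over 21 peaks. They encode omega-hydroxylases of fatty acids and leukotrienes. Cyp4f14 was at 7.80, 8.22 and 8.16 at its start in WT and 7.90, 7.89 and 8.14 in KO. By contrast the Cyp4a genes, which are induced by PPAR-alpha in liver and kidney, had 5 peaks at a median of 6.24 ± 0.23, and 1 of 8 had a start peak. The starts of Cyp4a12a and Cyp4a12b, without a peak, were 35.1% and 34.1% unique. Cyp1a1, the classic target of the aryl hydrocarbon receptor, had a single peak at 7.07, 7.40 and 7.22 in WT. That peak ended 413 bp before the RefSeq start, although it lay 8073 bp from the start of the longer GENCODE gene record. Cyp1a2, its liver-type neighbour, had no named peak and no start peak.

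The Ces1 and Ces2 genes lie in 2 clusters on chromosome 8. Ces1 had 22 peaks at 8 genes, with a WT median of 6.80 ± 0.22, and Ces2 had 12 peaks at 7 genes, with 7.02 ± 0.21 (SD, n = 3). The strongest carboxylesterase peaks were 1303 bp from the start of Ces2a (8.13 ± 0.18), in Ces1g at 3858 bp from its start (8.09 ± 0.36), and in Ces1a at 16692 bp from its start (7.85 ± 0.37). Ces2a was at 7.92, 8.23 and 8.24 in WT and at 8.20, 8.05 and 8.19 in KO, one narrow range for all 6 libraries. Starts of Ces2c and Ces2e, the other intestinal Ces2 genes of the list, were at 7.38 ± 0.22 and 7.08 ± 0.18 (SD, n = 3).

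The Ugt1a genes share their last exons and differ in alternative first exons along chromosome 1, and all 19 of their peaks are named Ugt1a10. One of the 19 was the widest peak of the whole table, 59250 bp at chr1:88211251-88270500, which covers the starts of Ugt1a1 and of the next coding gene, Mroh2a. It was at 8.08, 8.26 and 8.18 in WT and 8.21, 8.26 and 8.32 in KO, with the smallest spread among the 12 strongest enzyme gene peaks. Without it the median of the enzyme gene peaks remained 6.68 ± 0.14 (SD, n = 3). Ugt1a1 encodes the bilirubin-conjugating enzyme and had no start peak besides that one. A peak of that width does not place the accessibility at the Ugt1a1 start, although Ugt1a1 is counted as having a start peak. Starts of Ugt1a7c, Ugt1a6b, Ugt1a6a and Ugt1a9 lay at 6.96, 6.52, 6.40 and 6.28, and those of Ugt1a2, Ugt1a5, Ugt1a8 and Ugt1a10 had no peak. Among Ugt2b genes, Ugt2b34 led with 7.57, 6.94 and 7.94 in WT, while Ugt2b1, Ugt2b37 and Ugt2b38 had no named peak.

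All glutathione S-transferase genes of the mu class had start peaks, which ran from 6.90 for Gstm2 to 8.38 for Gstm4. Gstm4 was at 8.34, 8.20 and 8.60 in WT and at 8.46, 7.93 and 8.73 in KO. Gstm1 and Gstm3, known from intestine, were at 7.76 ± 0.38 and 7.68 ± 0.12 (SD, n = 3). Gstp1 and Gstp2, of the pi class, stood at 7.03 ± 0.13 and 7.65 ± 0.19. In the alpha class Gsta1 was at 7.07, 7.16 and 7.13 in WT, but only 26.1% of the words at its start were unique, so reads of a near-identical copy cannot be told apart from its own.

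Among the sulfotransferases, the median of the Sult1 peaks was 7.10, 6.68 and 7.40 in WT 1, 2 and 3, above that of the Sult2a peaks in each library (6.47, 6.07 and 6.29). Sult1d1, which conjugates catechols, was at 7.64, 6.94 and 8.37 at its start in WT and 7.69, 7.12 and 8.68 in KO. Sult1b1, an intestinal thyroid hormone and phenol sulfotransferase, had a peak 1345 bp from its start at 7.47 ± 0.72 (SD, n = 3). The Sult2a genes, known from female liver for bile acid and steroid sulfation, had 20 peaks at 5 genes under their current symbols. These had a median of 6.28 ± 0.20, below that of all peaks. By gene identifier Sult2a7 and Sult2a8 had 5 and 4 further peaks under other names, which the values given for Sult2a peaks leave out. Of the Sult2a genes, 2 of 8 had a start peak. Those start peaks, at Sult2a4 and Sult2a6, were at 6.08 and 6.03, near the bottom of the table (above 8.89% and 5.82% of all peaks). Unique words made up 10.3% at the Sult2a1 start and 16.1% at the Sult2a2 start, but 100% at Sult2a6 and Sult2a8.

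The bile acid synthesis genes were mixed. Cyp7a1, the rate-limiting enzyme of the classic liver pathway, had no named peak and no peak within 1 kb of its start. Cyp8b1 had 1 peak, over its start (chr9:121915951-121916700), at 6.78, 6.99 and 6.77 in WT and 7.27, 6.79 and 6.94 in KO. Cyp27a1, the sterol 27-hydroxylase that opens the alternative pathway, had a start peak at 7.02, 6.72 and 7.05 in WT and 7.03, 6.83 and 7.08 in KO. Its second peak, 12227 bp inside, was stronger in every library, at 7.61, 7.84 and 8.29 in WT and at 7.997, 7.597 and 8.08 in KO. Cyp46a1, the cholesterol 24-hydroxylase known from neurons, had the strongest enzyme gene peak of all, at 8.57, 7.97 and 8.68 in WT and 8.40, 8.02 and 8.89 in KO. The Cyp46a1 peak (chr12:108332701-108334800) covered its start, and 2 weaker peaks of the gene had WT means of 6.62 and 7.25.

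Cyp7b1, the oxysterol 7-alpha-hydroxylase, had 12 peaks along 171 kb, the second largest number of any enzyme gene. They were weak, with WT means between 5.76 and 6.60 and the start peak at 6.44 ± 0.60 (SD, n = 3). Cyp39a1, which hydroxylates 24-hydroxycholesterol, had 3 named peaks between 6.16 and 6.57, and the peak at its start, at 8.71 ± 0.46, bore the name of the gene next to it, Slc25a27. That value counts for both starts and cannot be divided between them. Of the 21 named peaks of the 6 genes, 15 had KO minus WT above 0 and 6 below, with a median of 0.09. Over all peaks 46.9% were above 0, and over peaks named for a gene 51.3%. None of the 21 was called or had an unadjusted limma p under 0.05, and with 2.28% of all peaks at such a p, a count of 0 in 21 says nothing particular to these genes.

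To set genes used in the intestine against genes known mainly from other organs, lists were drawn up from general knowledge of expression. They held 33 enzyme genes of small intestinal epithelium and 39 of liver, adrenal, gonad, kidney, brain, lung or olfactory tissue. Earlier results of these data were known when the lists were made, so the contrast is a description and not independent of the data. Start peaks were present for 27 of 33 intestinal genes (81.8%) and 11 of 39 other-organ genes (28.2%), beside 59.3% of all coding genes. The second count was 23 when any named peak within 5 kb was taken and 6 when the start peak had to reach the median of all peaks in reads per peak, where the first was 30 and 27. Named peaks numbered 84 at 30 intestinal genes and 51 at 23 other-organ genes. Sult2a7, whose 5 peaks by gene identifier bear another name, is counted here as a gene without a named peak. The median peak strength in WT 1, 2 and 3 was 6.91, 6.79 and 7.06 for the intestine list and 6.58, 6.32 and 6.47 for the other-organ list. The difference was 0.46 ± 0.13 (SD, n = 3), the intestine list being higher in all 3 WT libraries. It was 1.03 without division by peak width. Median gene lengths were 23.5 and 23.3 kb. Start windows under 80% unique were found for 7 intestinal and 13 other-organ genes, and without them 24 of 26 and 10 of 26 genes had a start peak. Of the 7 epithelial markers only 3 had a start peak, and Epcam, Krt8, Krt19 and Vil1 had none. A missing start peak therefore does not show that a gene is unused in the crypts.

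Within the lists the order was not clean. Of the 27 intestinal start peaks, 25 were above 6.43, the median over all peaks of the WT mean, and those of Sult2b1 and Ugt1a6a were below it. Among the 11 other-organ start peaks, 7 were above that median, the lowest of them Cyp2f2 at 6.46. Of all peaks, however, only 9.59% lay at the start of their named gene. Those had a WT median of 7.30 ± 0.32, beside 7.30 ± 0.39 for the intestinal start peaks (SD, n = 3). The intestinal starts were thus about as strong as gene starts in general, and the other-organ starts were weaker, at 6.63 ± 0.24. Cyp17a1, the 17-alpha-hydroxylase of steroid synthesis in adrenal and gonad, was at 7.87, 7.80 and 8.10 in WT and 8.06, 7.71 and 8.17 in KO. Its WT mean was above those of all intestinal start peaks except Cyp2s1, Ugt1a1, Cyp2d26 and Cyp4f14. Cyp46a1, described with the bile acid genes, was stronger still. Cyp27b1, the kidney 1-alpha-hydroxylase of vitamin D, was at 6.07, 6.29 and 6.21 in WT and at 6.38, 6.35 and 6.46 in KO, a weak peak whose KO values all lay above its WT values. Sult2a6, Sult2a4 and Cyp2c70 were also below 6.43, and Cyp2f2, Cyp3a44, Cyp2e1, Cyp8b1 and Ces1b lay between 6.46 and 6.91, within the range of the intestinal starts.

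**Figure D2:**
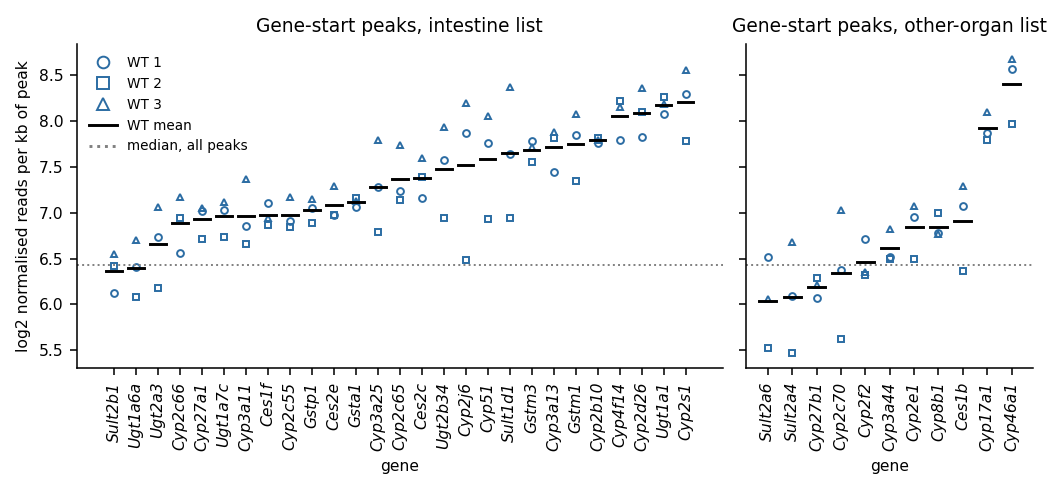
Strength of the start peak (y axis, log2 normalised reads per kb of peak) of each gene with one in the intestine list (left, 27 genes) and the other-organ list (right, 11 genes). Symbols are the 3 WT libraries, bars their mean and the dotted line the median over all peaks of the WT mean (6.43). The line covers all peaks and not gene starts alone. The means of 25 intestinal genes lie above that line, and WT 2 is the lowest symbol for 18 of the 27. The Ugt1a1 value is that of the 59250 bp peak, which also covers the start of Mroh2a.

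**Figure D3:**
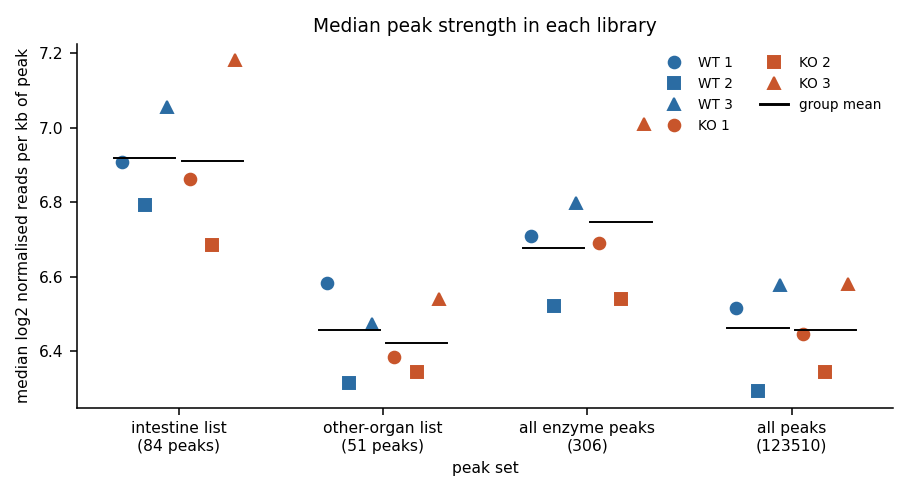
Median strength (y axis, log2 normalised reads per kb of peak, axis not starting at 0) in each of the 6 libraries for 4 sets of peaks, with WT in blue, KO in orange and bars for group means. The intestine list is above the other-organ list in every library, WT and KO values overlap in every set, and the number-2 libraries are the lowest of their group in every set.

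KO was compared with WT to ask whether loss of Smarcad1 altered access to these genes. No enzyme gene peak differed at an adjusted limma p below 0.05, where 0% of all 123510 peaks did. That count holds for limma on the deposited values, since edgeR, the test the study used on read counts, was not run here. With edgeR the paper reports sites of changed accessibility in KO, most of them increases. The absence of calls here therefore does not mean that no peak of the table changed. At an unadjusted p below 0.05 there were 9 of 306 peaks (5 with KO higher and 4 with KO lower), or 2.94%, against 2.28% of all peaks. Limma voom on recovered reads called none of the 306 and 3 of all peaks, and had 11 of the 306 and 2947 of all peaks at an unadjusted p under 0.05. All 3 KO values exceeded all 3 WT values at 11 enzyme gene peaks, or 3.59%, against 2.7% of all peaks. They were all below at 7 peaks, or 2.29%, against 4.1% of all peaks. Enzyme gene peaks all bear a gene name. Of the 61914 peaks that do, 2.82% were higher and 2.79% lower without overlap, and 1.91% had an unadjusted limma p below 0.05. The median KO minus WT of the 306 peaks was 0.03 on the log2 scale, with 173 above 0 and 133 below (56.5% above). Over all peaks the median was -0.02, with 46.9% above 0. Over peaks named for a gene it was 0.01, with 51.3% above 0, so part of the difference from all peaks is common to gene-named peaks. The sign rested on single libraries, as the median of the 306 was -0.09 without KO 3, -0.04 without WT 2, 0.15 without WT 3 and 0.17 without KO 2, where that of all peaks was -0.11, -0.14, 0.08 and 0.08. It was 0.01 without WT 1. The medians over the 306 peaks and over all peaks are small beside the spread between replicates. The replicate medians for the enzyme gene peaks ranged from 6.52 to 6.80 in WT and from 6.54 to 7.01 in KO.

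By family the median KO minus WT lay between -0.04 for Ugt1a and 0.12 for Sult1, and no family had a called peak. The Sult2a peaks had a median of -0.12 (8 above 0 and 12 below) and the Cyp2b peaks -0.19 (3 above and 9 below). The intestine list had a median of 0.01 (44 above and 40 below) and the other-organ list 0.01 (27 above and 24 below). In KO the list medians were 6.91 ± 0.25 and 6.42 ± 0.10 (SD, n = 3), which overlapped their WT values. At the 27 and 11 start peaks of the lists, KO and WT values failed to overlap for 2 genes, Cyp27b1 (KO higher) and Cyp2e1 (KO lower). Among all peaks at the start of their named gene, 1.33% were higher and 1.07% lower without overlap.

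**Figure D4:**
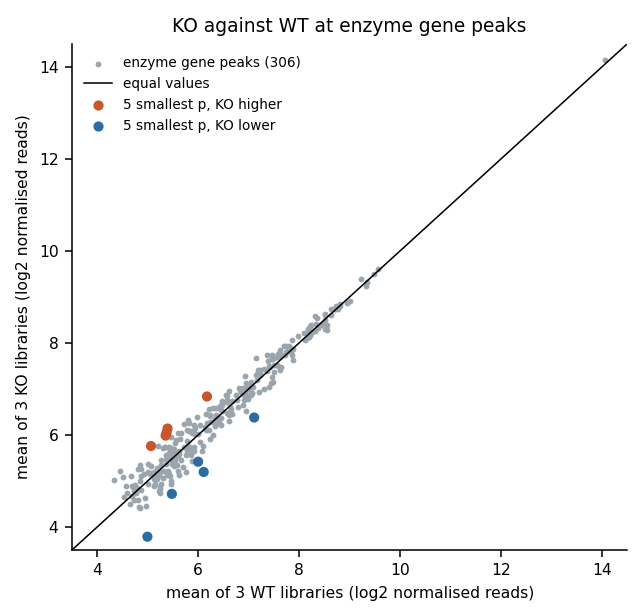
Mean of the 3 KO libraries (y axis) against the mean of the 3 WT libraries (x axis) for the 306 enzyme gene peaks, both in log2 normalised reads in the peak. Coloured points are the 5 peaks with the smallest unadjusted p in each direction, and the single point near 14 is the 59250 bp Ugt1a peak.

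The values that follow are log2 normalised reads in the whole peak. Among peaks with lower KO values, the smallest unadjusted p belonged to a peak 11027 bp inside Gsta4, which detoxifies lipid aldehydes (chr9:78193801-78194400). It was at 6.29, 6.05 and 5.98 in WT and at 4.93, 4.84 and 5.80 in KO, so that KO was below WT throughout. KO minus WT was -0.91 ± 0.29 (SE), with an unadjusted limma p of 0.0070 and an adjusted p of 1.00.

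Cyp2e1, which oxidises ethanol in liver, had 7.22, 6.76 and 7.34 in WT and 6.65, 5.73 and 6.75 in KO at its start (chr7:140763301-140764500). All 3 KO values were below all 3 WT values, though KO 3 and WT 2 nearly met. The difference was -0.73 ± 0.32 (SE), with an unadjusted limma p of 0.036 and an adjusted p of 1.00.

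The other leading peaks with lower KO values lay away from the gene start. A Cyp2j13 peak 48746 bp from the start differed by -0.76 ± 0.30 (SE), and a Cyp2b10 peak 21781 bp from the start by -0.58 ± 0.27. The groups did not overlap for Cyp2j13, whereas KO 3 and WT 2 overlapped for Cyp2b10. A 300 bp Cyp3a16 peak had the lowest fold change, -1.21 ± 0.63 (SE), which came with 1 read in KO 3. Its values were 5.37, 4.97 and 4.64 in WT and 4.93, 4.43 and 2.00 in KO, and the groups overlapped. Without KO 3 its KO minus WT was -0.31.

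Among peaks with higher KO values, the smallest unadjusted p belonged to a peak of the Ugt1a cluster at chr1:88195651-88196250, which lies between the starts of Ugt1a5 and Ugt1a2. It was at 5.22, 5.46 and 5.43 in WT and 5.93, 6.04 and 6.17 in KO, with KO above WT throughout. The difference was 0.68 ± 0.24 (SE), with an unadjusted limma p of 0.014 and an adjusted p of 1.00. A Cyp4f15 peak 2824 bp from the start was at 5.06, 5.13 and 5.00 in WT and at 5.58, 5.69 and 6.00 in KO, again without overlap, and differed by 0.69 ± 0.26.

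Peaks of Cyp2c69, Cyp3a25 and Sult1c1 lay 20249, 33068 and 28174 bp from the gene start, and KO minus WT was 0.75 ± 0.28, 0.66 ± 0.28 and 0.63 ± 0.27 (SE). KO and WT values overlapped for Cyp2c69 only. Reads in these 10 peaks ranged from 1 to 162 per library. With the exception of Cyp2e1 none of the 10 lay at a gene start, and none passed the adjusted threshold in this fit.

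**Figure D5:**
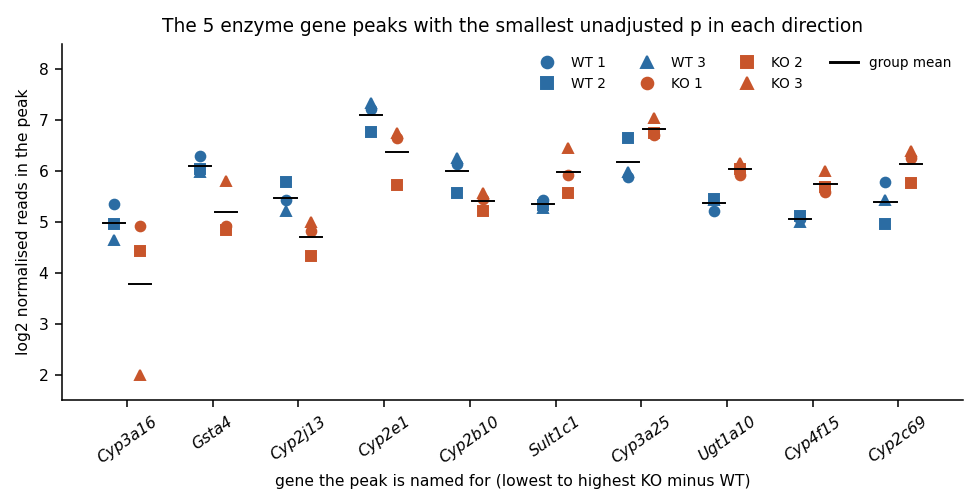
Values in each library (y axis, log2 normalised reads in the peak, axis not starting at 0) for the 5 enzyme gene peaks with the smallest unadjusted p in each direction, ordered by KO minus WT. WT is blue, KO orange, symbols mark the replicate number and bars are group means. The Cyp3a16 mean in KO is set by KO 3, at 2.00.

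Regulators, electron donors and transporters of the pathway were taken as a list of 31 genes, of which 28 had peaks under their current symbol (130 in all) and 24 a start peak. Their start peaks had a WT median of 7.57 ± 0.29 and a KO median of 7.48 ± 0.42 (SD, n = 3). Nr1i2 and Nr1i3, which encode the xenobiotic receptors PXR and CAR, were at 7.63 ± 0.28 and 7.75 ± 0.14. Ahr, the receptor of dioxins and plant indoles, was at 8.72, 7.42 and 8.73 in WT and at 8.26, 7.36 and 8.98 in KO. Nfe2l2, which acts at antioxidant response elements, was the strongest of the list at 8.84 ± 0.22, and Hnf4a was at 7.43 ± 0.22. Por, the electron donor of microsomal P450 enzymes, stood at 7.28 ± 0.25. Slc51a and Slc51b, the bile acid exporter subunits, had strong start peaks (7.91 ± 0.12 and 8.26 ± 0.19) under their older symbols Osta and Ostb, which the 130 leave out. None of the 130 peaks was called by limma, and 3 had an unadjusted p under 0.05 (1 of Ephx1 with KO lower, 1 of Vdr and 1 of Nr1i2 with KO higher), or 2.31% beside the 2.28% of all peaks.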

How the data were processed

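ATAC-seq was performed by the authors on crypt nuclei for 3 WT and 3 Smarcad1-KO libraries, and groups and replicate numbers come from the sample titles. The authors trimmed reads with Trim Galore (0.4.1), aligned them to GRCm38 with Bowtie 2 (2.2.5), removed duplicates, kept mapping quality of at least 20 with a distance limit of 1000 bp, and called MACS peaks in SeqMonk. Whether MACS pooled the libraries, and whether reads were shifted for the transposase, is not given in the sources used here. One peak set serves all libraries. The deposited values are log2 read counts scaled to the largest library. They hold whole reads, recovered in 100% of values within a tolerance of 0.02 reads (a peak without reads is written as 0.9 of a read). PCR duplicates without molecular identifiers mean that reads are not independent molecules. A second deposited table, with peaks past the authors' edgeR threshold and their adjusted p-values, was not used. No column of values was left without a sample.

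The authors tested with edgeR, which needs counts. Here limma 3.58.1 (R 4.3.3; lmFit and eBayes with trend, two-sided, no covariate) was run on the deposited log2 values of all peaks, with Benjamini-Hochberg adjustment over all peaks and calls below 0.05. The scripts were tested on simulated data. An exact permutation test of 3 against 3 libraries cannot go below 0.1 and was not used. The labels do not say that each library came from its own animal, so p-values measure the spread between libraries, which may be in part technical. Peaks carry the name of a gene within 5 kb, as deposited. Starts, lengths and the 167 coding genes come from GENCODE vM21, promoters from RefSeq, and the share of unique 50-base words from the GRCm38 sequence. Of the 125 names, 3 are outside the coding genes (Cyp2c44 and 2 pseudogenes, 7 peaks).

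Named were every peak of bile acid genes, the 12 strongest peaks per kb, start peaks of the intestine list and of other-organ genes, the 5 smallest p in each direction, and any peak called in any fit. Other genes in the text were chosen after their values were seen. The members and lists were chosen with earlier results of these data known. Alternatives were median centring, quantile normalisation, voom on recovered reads, a minimum mean of 32 on the linear scale, a pseudocount of 5, a replicate block, a threshold of 0.1, leaving out each library, and other definitions of start peaks and strength.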

Additional observations from a re-analysis of the deposited data

How the results depend on the processing

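The number of enzyme gene peaks called in KO against WT was 0 under median centring, quantile normalisation, voom, the filter, the pseudocount, a threshold of 0.1 and each library left out. The labels do not say whether replicate numbers pair the samples. Deviations of same-numbered WT and KO libraries from their group means correlated at 0.04, 0.42 and 0.41 for numbers 1, 2 and 3. Between libraries of unlike number the correlations ran from -0.46 to 0.04. Libraries numbered 2 and 3 thus shared deviations across the groups, and those numbered 1 hardly did. With the number as a replicate block, 1 enzyme gene peak was called, the Cyp2e1 start peak (KO minus WT -0.73, adjusted p = 0.043 from limma fitted across all peaks, and between 0.043 and 1.00 over its alternatives), among 272 peaks called in the whole table. The block with quantile normalisation, chosen after seeing the data, called 0. Of the 6 libraries, 5 correlated best with the library of their own number, and WT 1 correlated slightly more with KO 3.

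The count of enzyme gene peaks at an unadjusted limma p below 0.05 was 9, beside 2821 of 123510 in the whole table. It became 20 with the replicate block (8491 in the whole table) and 25 with the block and quantile normalisation (9321). With 1 library left out it ranged from 3 to 16. It was 3 without WT 1, 5 without WT 3 and 16 without KO 2, where the whole table had 1166, 2098 and 4774. The whole-table count thus moved in the same direction each time. The 10 leading peaks kept their direction in the 13 alternative fits in which they were tested. Of the 61 other named peaks, 43 changed sign in at least 1, and all of those were within 0.26 of 0. The difference between intestine and other-organ lists, 0.46, was 1.03 without division by width and 0.66 over start peaks alone, and 0.40 to 0.53 with 1 WT library left out. What caused these shifts was not tested. The other-organ genes with a start peak, 11, became 23 when any peak within 5 kb under the current symbol counted. They became 6 when the peak had to reach the median of all peaks (strength not per kb). The 27 intestinal genes with a start peak, of 33, became 25 to 31 under other definitions, and were 24 of 26 without genes under 80% unique. The start of any transcript (31), the unique-word limit and the unadjusted count were also chosen after seeing the data. Peaks with few reads limit what can be seen, since the lowest enzyme gene peak had 1 read in a library.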
